A study of Mus musculus with 14 samples.

Results

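The levels of 10 transcription factors that build or maintain Purkinje cells were followed in mouse cerebellum at postnatal day 21 (P21), with and without Astn2, the gene of the endosomal membrane protein astrotactin 2. The factors are Rora, Foxp2, Foxp4, Lhx1, Lhx5, Skor2, Ebf1, Ebf3, En2 and Hes3, taken by name from their known roles, and all 10 were found among the 24100 genes of the count table. Translating ribosome affinity purification (TRAP) isolates RNA bound to a tagged ribosomal protein. Every mouse carried the transgene Tg(Pcp2-Egfp-L10a), in which the Pcp2 promoter, active in Purkinje cells, drives EGFP-tagged L10a, so the purified RNA is biased to Purkinje cells but is not from sorted cells. Input is RNA of the whole cerebellar homogenate set aside before the purification. The groups were input from Astn2 WT (4 libraries, 1 female and 3 male), input from Astn2 KO (3 libraries, 2 female and 1 male), TRAP from WT (3 libraries, 1 female and 2 male) and TRAP from KO (4 libraries, 2 female and 2 male). WT and KO were littermates. The labels do not say that each library came from a separate animal, so p-values measure only the spread between these libraries.

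Purkinje cells are the GABAergic output neurons of the cerebellar cortex. They arise from the ventricular zone under the bHLH factor Ptf1a, and their later identity depends on a sequence of factors of several families. Lhx1 and Lhx5 are LIM-homeodomain proteins that act with the adaptor Ldb1 and are needed together for Purkinje cell production. Skor2 is a Ski-family corepressor required for Purkinje differentiation. Ebf1 and Ebf3 belong to the early B-cell factors, Foxp2 and Foxp4 to the forkhead repressors, and Rora is the orphan nuclear receptor lost in the staggerer mouse, in which Purkinje dendrites fail to mature. En2 is an Engrailed homeodomain protein that patterns cerebellar folia and is used by several cerebellar cell types. Hes3 is a bHLH repressor of the Hairy family.

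Promoters of 5 of the factors (Rora, Ebf1, Ebf3, Lhx1 and Foxp4) were matched in the RefSeq promoter table of GRCm38.p6, and those of Foxp2, Lhx5, Skor2, En2 and Hes3 were not analysed here. All 5 genes were higher on Purkinje ribosomes. The 3 windows below are examples that differ in composition. Each is the 250 bases upstream of an annotated start, written 5′ to 3′ on the strand of the gene, with motif matches in capitals. Rora lies on the plus strand at chr9:68653536-68653785, Foxp4 on the minus strand at chr17:47924633-47924882 and Ebf3 on the minus strand at chr7:137314446-137314695. The Rora and Ebf3 windows lie inside the RefSeq spans of their genes, chr9:68653404-69388246 and chr7:137193671-137322805. Their starts are thus internal to the genes, and which starts are used in these libraries was not tested.
Rora: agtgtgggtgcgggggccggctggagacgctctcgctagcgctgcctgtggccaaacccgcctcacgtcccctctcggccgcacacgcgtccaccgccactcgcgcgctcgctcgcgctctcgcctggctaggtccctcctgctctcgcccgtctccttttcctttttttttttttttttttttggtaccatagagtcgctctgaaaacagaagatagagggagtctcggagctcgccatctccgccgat
Foxp4: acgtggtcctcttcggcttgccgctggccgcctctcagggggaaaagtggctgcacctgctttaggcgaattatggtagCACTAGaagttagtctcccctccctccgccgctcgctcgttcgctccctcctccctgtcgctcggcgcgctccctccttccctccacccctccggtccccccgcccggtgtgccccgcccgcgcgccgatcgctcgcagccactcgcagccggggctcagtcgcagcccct
Ebf3: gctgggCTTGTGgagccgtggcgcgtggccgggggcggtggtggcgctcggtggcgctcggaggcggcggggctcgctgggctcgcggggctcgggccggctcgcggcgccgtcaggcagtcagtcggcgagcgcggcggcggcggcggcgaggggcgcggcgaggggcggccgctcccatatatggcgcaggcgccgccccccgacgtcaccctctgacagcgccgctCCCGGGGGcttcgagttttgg
The Ebf3 window had a GC content of 80.0% and 43 CpG, the Foxp4 window 69.6% and 27, and the Rora window 61.2% and 26, against medians of 52.4% and 6 over 32851 promoters. Of the windows not shown, that of Lhx1 had 64.8% and 26 CpG. Those of Ebf1 had 40.0% and 9, and 52.0% and 14, and the latter window also lies inside the span of its gene. The motifs searched, on both strands, were the ROR half-site AGGTCA, the EBF palindrome CCCNNGGG, the homeodomain core TAATTA, the forkhead core GTAAACA and the HES N-box CACNAG. The EBF palindrome was found in the Ebf3 window, beginning 21 bases upstream of that internal start, and is present in 11.8% of all promoters. The N-box was found in Ebf3 and Foxp4 and is present in 36.7% of all promoters. No match to the ROR (14% of all promoters), homeodomain (4.84%) or forkhead (3.17%) letters lay in the 6 windows of these 5 genes.

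Library totals ranged from 18799609 to 54229183 counts, and the fewest reads of any of the 10 factors in a library were 282, for Foxp2. Levels are given as CPM, the counts of a gene scaled to a common library total with TMM factors. Astn2 stood at 94.5 ± 6.76 CPM (SD, n = 4) in WT input and 0.877 ± 0.129 (n = 3) in KO input, and at 130 ± 14.9 (n = 3) and 1.52 ± 0.448 (n = 4) in TRAP. All 12 Purkinje markers were higher in TRAP than in input in both genotypes, with a summed level of 7000 to 8380 CPM in input libraries and 78800 to 98500 in TRAP libraries. All 10 granule cell markers were lower, their sum going from 5310 to 5750 CPM in input down to 782 to 1440 in TRAP, and no marker of either list was at 0. In WT, all 7 interneuron, all 10 oligodendrocyte, all 8 endothelial, 9 of 10 astroglial and 7 of 8 microglial markers were also lower in TRAP, and Hopx was the 1 astroglial marker that was higher. Of 6 choroid plexus markers 1, Clic6, was higher in TRAP in both genotypes, and the other 5 were called lower in KO and did not pass in WT. The summed level of all 6 ran from 10.5 to 1170 CPM in inputs and from 85.0 to 204 in TRAP. Clic6 alone had means of 111 CPM in WT TRAP and 91.7 in KO TRAP. KO input replicates 1, 2 and 3 had sums of 12.3, 1170 and 10.5 CPM, so replicate 2 was far above the others. One TRAP library, WT replicate 3, stood apart: its log2 levels deviated from the mean of the other WT libraries with an SD of 0.601 over genes, against 0.333 and 0.449 for WT replicates 1 and 2 and 0.196 to 0.329 for the KO libraries.

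On Purkinje ribosomes 9 of the 10 factors were higher than in whole cerebellum and 1, En2, was lower, in both genotypes. In WT the differences ran from 2.23-fold for Rora to 15.4-fold for Hes3, and En2 was 4.45-fold lower. All 10 passed edgeR's quasi-likelihood test in both genotypes, a test that 75.5% of all 16042 genes passed in WT, 37.0% as higher and 38.5% as lower. The same shares for KO were 75.9%, 36.3% and 39.6%. TRAP and input libraries did not overlap for any of the 10 in either genotype, which holds for 72.6% of all genes in WT and 78.0% in KO. The median log2 fold change of the 10 was 2.38 in WT and 2.26 in KO, beside -0.09 and -0.11 over all genes. In bulk RNA, a different share of cells expressing a gene and a different amount per cell cannot be told apart. Scaling by library totals in place of TMM factors moved the log2 median of all genes by -0.82 (WT) and -0.73 (KO). The share of called genes that were higher then went from 49.0% to 24.2% for WT libraries and from 47.8% to 24.5% for KO libraries. The changes given here are therefore relative to the bulk of genes.

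**Figure D1:**
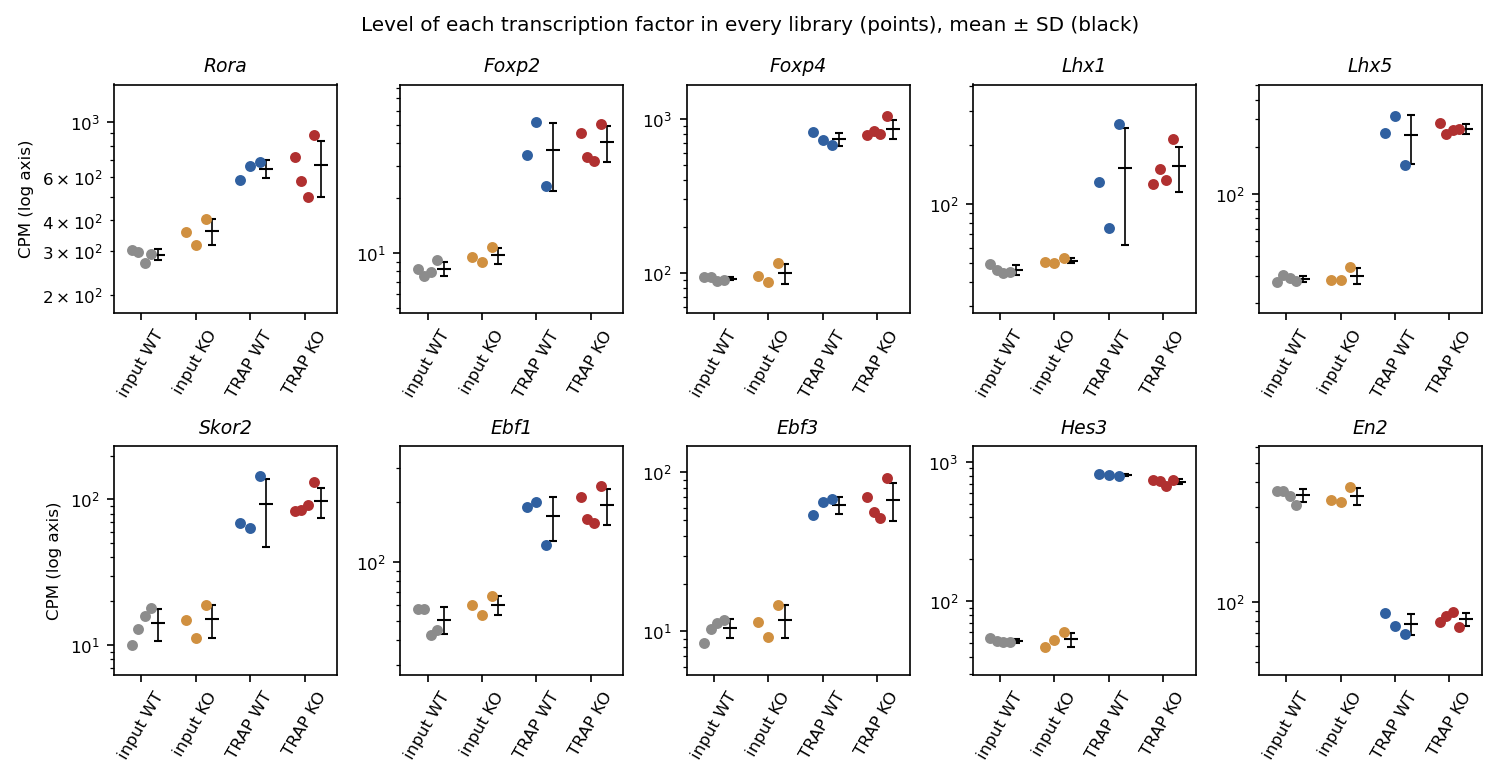
Level of each factor in CPM (log axis, a different range in each panel) in every library, by group, with points for libraries and black bars for mean ± SD. The TRAP libraries sit above the input libraries for 9 factors and below them for En2, and WT and KO points overlap within TRAP except for Hes3.

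**Figure D2:**
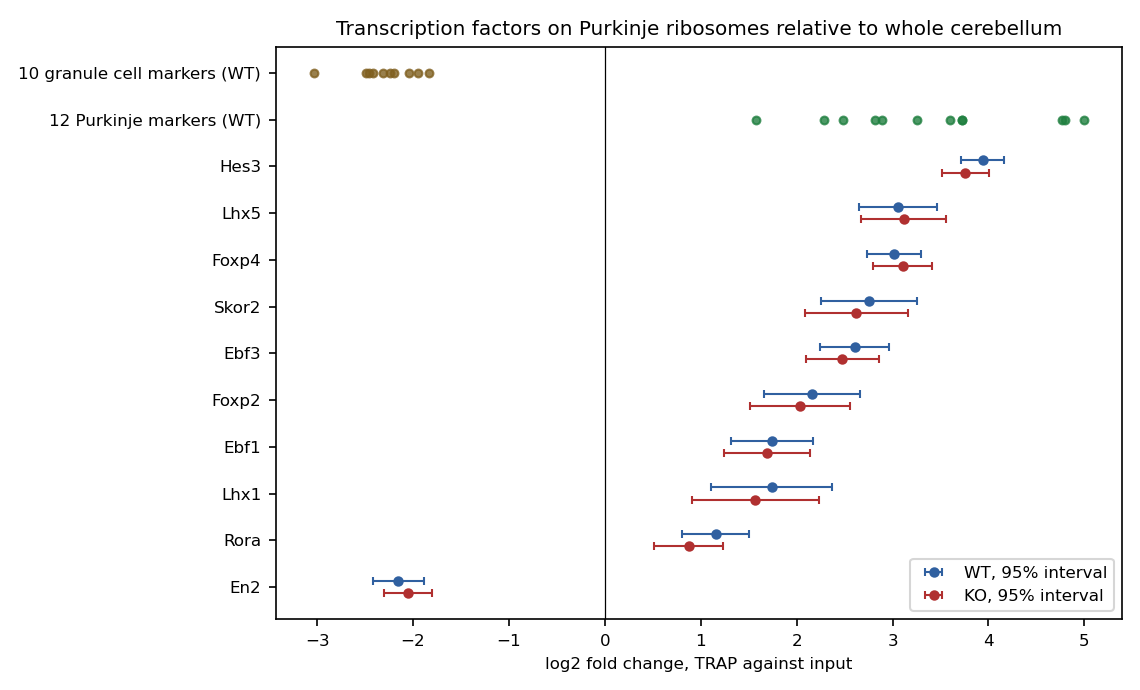
Log2 fold change of TRAP against input for each factor in WT (blue) and KO (red) with 95% intervals, and single points for 12 Purkinje and 10 granule cell markers in WT. Hes3 lies among the upper Purkinje markers, Rora below all 12 of them, and En2 among the granule cell markers.

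Rora, the nuclear receptor, was measured at 304, 298, 269 and 292 CPM in the 4 WT inputs and at 585, 664 and 691 CPM in the 3 WT TRAP libraries. In KO it stood at 358, 319 and 407 CPM in input and at 719, 579, 496 and 887 CPM in TRAP. Every TRAP library exceeded every input library, yet the step was the smallest of the 9 rising factors. The log2 fold change was 1.16 ± 0.16 (SE) in WT and 0.87 ± 0.17 in KO, with adjusted p = 1.94e-05 and 0.000324 by edgeR's quasi-likelihood test. All 12 Purkinje markers had larger values than Rora in both genotypes. This is the 1 factor whose call depended on scaling: with library totals its log2 fold change was 0.34 in WT (adjusted p = 0.0551) and 0.14 in KO (adjusted p = 0.426). Its longest transcript, 10.88 kb, is the longest of the 10, and offsets for transcript length moved the value the other way, to 2.27 in WT and 1.98 in KO.

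Of the genes known to depend on Rora in Purkinje cells, Pcp2, Pcp4, Slc1a6, Itpr1 and Shh, 5 of 5 were higher in TRAP in both genotypes. Among all genes 37.0% were higher in WT and 36.3% in KO. Pcp2, Pcp4, Slc1a6 and Itpr1 are also among the 12 Purkinje markers, so the count adds only Shh to those. The median log2 fold change of the 5 was 3.37 in WT and 3.16 in KO. Shh, the mitogen that Purkinje cells supply to granule cell precursors, went from 3.64 ± 0.454 CPM (SD, n = 4) in WT input to 37.7 ± 7.41 (n = 3) in WT TRAP, a log2 fold change of 3.37 ± 0.19 (SE). Itpr1, the IP3 receptor of the Purkinje endoplasmic reticulum, had the smallest value of the 5, 2.28 ± 0.27 in WT. None of the 5 passed the test for genotype in either fraction.

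The forkhead pair differed in level more than in enrichment. Foxp4, required to keep the Purkinje dendritic arbor in place, stood at 93.7, 94.5, 89.2 and 90.5 CPM in WT input and at 817, 723 and 680.0 CPM in WT TRAP. In KO it was at 95.3, 87.4 and 116 CPM in input and at 781, 835, 796 and 1041 CPM in TRAP. Its TRAP libraries all lay far above its inputs, with a log2 fold change of 3.02 ± 0.13 (SE) in WT and 3.10 ± 0.14 in KO (adjusted p = 3.11e-10 and 8.32e-10, edgeR). Foxp2, the forkhead gene known from inherited speech disorder, was read at 8.24, 7.50, 7.84 and 9.18 CPM in WT input and at 34.2, 52.0 and 23.2 CPM in WT TRAP. KO libraries gave 9.47, 8.91 and 10.8 CPM in input and 45.3, 33.5, 32.0 and 50.4 CPM in TRAP. The log2 fold change of Foxp2 was 2.16 ± 0.23 in WT and 2.03 ± 0.24 in KO (adjusted p = 1.36e-06 and 4.08e-06, edgeR). With transcript length offsets the Foxp2 values were 2.91 and 2.73.

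Both LIM-homeodomain genes were higher on Purkinje ribosomes, Lhx5 by more than Lhx1. Lhx5 stood at 27.4, 30.4, 29.1 and 27.6 CPM in WT input and at 244, 314 and 152 CPM in WT TRAP. KO input held 28.0, 28.2 and 33.9 CPM and KO TRAP 286, 241, 257 and 259.7 CPM. The inputs and the KO TRAP libraries each fall in a narrow band, while WT replicate 3 is the lowest TRAP library. The log2 fold change was 3.05 ± 0.19 (SE) in WT and 3.11 ± 0.20 in KO (adjusted p = 6.34e-09 and 1.44e-08, edgeR). Lhx1 was at 49.6, 45.9, 44.2 and 44.8 CPM in WT input and at 129.8, 75.7 and 255 CPM in WT TRAP. In KO it was at 50.8, 50.2 and 53.0 CPM in input and at 126, 150.2, 132 and 214 CPM in TRAP. Its WT TRAP libraries were the most widely spread of any factor, and the log2 fold change was 1.74 ± 0.29 in WT and 1.57 ± 0.31 in KO (adjusted p = 0.000101 and 0.000396, edgeR). Without WT TRAP replicate 3 the WT value was 1.11, and without WT TRAP replicate 2 it was 2.03. The adaptor Ldb1, which joins LIM-homeodomain proteins into a complex, was at 97.5 ± 3.44 CPM (SD, n = 4) in WT input and 93.5 ± 12.2 (n = 3) in WT TRAP, a log2 difference of -0.06 ± 0.11 (SE) that did not pass the test.

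Skor2, the corepressor of the Ski family, stood at 10.0, 12.9, 15.9 and 18.1 CPM in WT input and at 69.3, 63.7 and 145 CPM in WT TRAP. KO libraries held 14.9, 11.3 and 18.9 CPM in input and 83.2, 84.3, 91.5 and 132 CPM in TRAP. Its TRAP values all exceeded its inputs, and WT replicate 3 and KO replicate 4 were the 2 highest. The log2 fold change was 2.75 ± 0.23 (SE) in WT and 2.62 ± 0.25 in KO (adjusted p = 1.31e-07 and 4.45e-07, edgeR).

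Ebf1 and Ebf3 were both higher on Purkinje ribosomes. Ebf1 was read at 57.4, 57.5, 42.6 and 45.2 CPM in WT input and at 190.0, 200.0 and 121 CPM in WT TRAP. In KO it was at 60.4, 53.8 and 66.6 CPM in input and at 212, 164, 157 and 241 CPM in TRAP. Ebf1 thus rose in both genotypes, with log2 fold changes of 1.75 ± 0.20 (SE) for WT and 1.69 ± 0.21 for KO (adjusted p = 2.39e-06 and 5.70e-06, edgeR). They were 2.39 and 2.29 with transcript length offsets. Ebf3 stood at 8.51, 10.4, 11.3 and 11.7 CPM in WT input and at 54.0, 65.2 and 68.1 CPM in WT TRAP. KO input held 11.4, 9.24 and 14.7 CPM and KO TRAP 69.6, 56.7, 51.9 and 91.6 CPM. Ebf3 started lower and rose further, by 2.60 ± 0.17 in WT and 2.48 ± 0.18 in KO (adjusted p = 9.86e-09 and 3.36e-08, edgeR).

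Hes3 had the largest step, and the least spread of the 10 among TRAP libraries. It stood at 54.7, 52.3, 51.4 and 50.8 CPM in WT input and at 814, 806 and 788 CPM in WT TRAP. In KO it was at 47.5, 52.8 and 59.9 CPM in input and at 741, 728, 678 and 747 CPM in TRAP. The log2 fold change was 3.94 ± 0.10 (SE) in WT and 3.76 ± 0.11 in KO (adjusted p = 2.27e-11 and 1.28e-10, edgeR). Of the 12 Purkinje markers, 3 had larger values than Hes3 in each genotype. In WT TRAP only 1.11% of genes had a smaller SD of log2(CPM + 1) than Hes3, and in KO TRAP 8.7%.

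En2 went the other way. It was at 364, 361, 343 and 309 CPM in WT input and at 87.8, 76.2 and 68.9 CPM in WT TRAP. KO libraries gave 328, 319 and 381 CPM in input and 79.6, 85.4, 89.2 and 75.1 CPM in TRAP. Every TRAP library lay below every input library, and the log2 fold change was -2.15 ± 0.12 (SE) in WT and -2.05 ± 0.12 in KO (adjusted p = 3.45e-09 and 4.32e-09, edgeR). The 10 granule cell markers had values of -3.03 to -1.84 in WT, with a median of -2.28, and the 7 inhibitory interneuron markers a median of -1.92. The part of RNA from these cells in the En2 values was not tested. Its paralog En1, expressed with En2 at the midbrain-hindbrain boundary, was at 5.68 ± 1.38 CPM (SD, n = 4) in WT input and 7.56 ± 1.93 (n = 3) in WT TRAP, and did not pass the test in WT.

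Levels of different genes were compared per kilobase of the longest transcript. In WT input En2 was highest at 97.3 ± 7.11 CPM per kb (SD, n = 4), followed by Hes3 at 28.6 ± 0.932 and Rora at 26.7 ± 1.39, whose libraries overlapped. Foxp4, Lhx1, Lhx5, Ebf1, Skor2, Ebf3 and Foxp2 followed in that order without overlap between neighbours, down to 1.21 ± 0.107 for Foxp2. In WT TRAP Hes3 led at 439 ± 7.21 CPM per kb (n = 3), then Foxp4 at 185 ± 17.6, with no overlap between them. Lhx5 (88.1 ± 30.1), Rora (59.4 ± 5.07), Lhx1 (39.9 ± 23.9), Skor2 (29.6 ± 14.5), Ebf1 (28.5 ± 7.21) and En2 (21.9 ± 2.69) followed, each overlapping with its neighbour among these 6. Ebf3 at 12.5 ± 1.49 and Foxp2 at 5.40 ± 2.15 were the lowest and stood clear of their neighbours. In KO TRAP the order was the same except that Ebf1 preceded Skor2, and these 2 overlapped there too.

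Within their families, 5 of the 9 factors other than Rora held a larger mean share of CPM per kilobase in WT TRAP than in WT input. Foxp4 held 85.0 ± 0.533% (SD, n = 4) of the Foxp family in WT input and 96.6 ± 1.38% (n = 3) in WT TRAP, while Foxp1 went from 10.3 ± 0.766% to 0.637 ± 0.318% and Foxp2 from 4.48 ± 0.461% to 2.80 ± 1.09%. Hes3 went from 62.3 ± 1.44% of the Hes family to 94.5 ± 1.47%, and Hes6, the next most abundant, from 25.1 ± 1.24% to 5.03 ± 1.29%. WT input and WT TRAP libraries did not overlap in the shares of Foxp4, Hes3, Skor2, Ebf3 and En2, and overlapped in those of Foxp2, Lhx1, Lhx5 and Ebf1. Skor2 and Skor1 were nearly even in WT input, with Skor2 at 51.1 ± 6.72%, and Skor2 held 76.2 ± 9.90% in WT TRAP. Lhx5 held 47.0 ± 2.08% of the Lhx1 and Lhx5 pair in WT input and 68.2 ± 20.2% in WT TRAP.

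Of the early B-cell factors, Ebf1 kept about the same share, 59.8 ± 5.41% in WT input and 58.4 ± 7.57% in WT TRAP. Ebf3 went from 15.0 ± 2.85% to 26.5 ± 6.29% and Ebf4 from 13.1 ± 1.35% to 0.541 ± 0.236%. In contrast, the share of En2 in the En1 and En2 pair was smaller in TRAP, going from 97.8 ± 0.377% in WT input to 88.4 ± 2.37% in WT TRAP. The ratio of Lhx1 to Lhx5 per kilobase lay between 1.06 and 1.27 in all 7 input libraries. In TRAP it was 0.371, 0.169 and 1.17 in WT and 0.309, 0.435, 0.360 and 0.576 in KO. In 6 of the 7 TRAP libraries there was thus more Lhx5 than Lhx1, and in WT replicate 3 slightly more Lhx1.

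**Figure D3:**
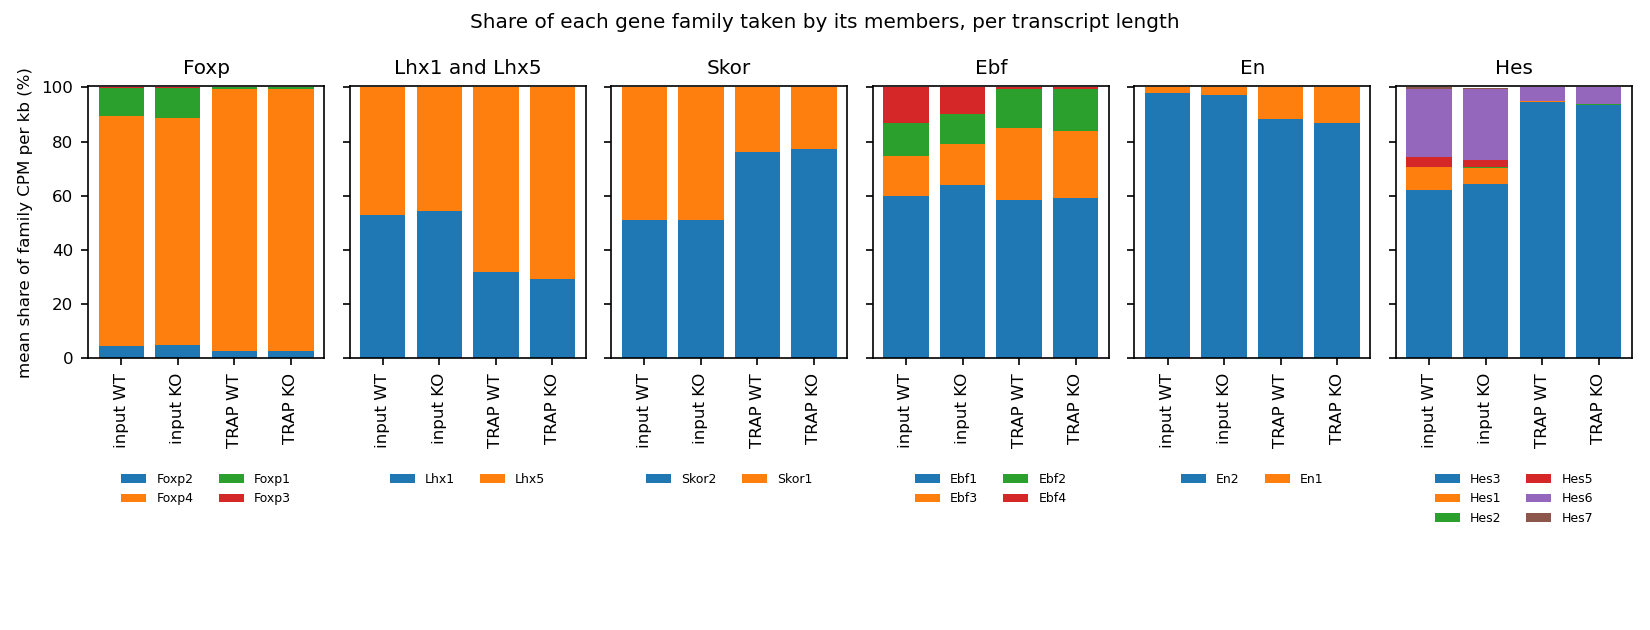
Mean share of each family's CPM per kilobase (vertical axis, percent) taken by each of its genes in the 4 groups, from 0 to 100%, without error bars. Foxp4 and Hes3 take most of their families in TRAP, with 96.6% and 94.5% in WT, and Lhx5 takes the larger share of the Lhx1 and Lhx5 pair there.

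Of 23 other genes of the same families 15 were tested over all libraries. In WT 4 of these were higher in TRAP and 5 lower, where 37.0% of all genes were higher and 38.5% lower, so the counts do not set the relatives apart from other genes. Their median log2 fold change was -0.41. Ebf2, whose loss affects Purkinje migration and survival, rose by 2.09 ± 0.18 (SE) in WT and 2.26 ± 0.19 in KO. Hes6, Skor1 and Lhx3 were the other 3, at 1.01, 0.94 and 1.49 in WT, but with library totals Ebf2 was the 1 relative called higher and 9 were called lower. Ebf4, Foxp1, Hes1 and Hes5 were among those that fell, Ebf4 most with -2.80 ± 0.27. KO had 4 relatives higher and 8 lower, or 4 lower without KO input replicate 3, where 36.3% and 39.6% of all genes were called.

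Of 18 cofactors and partners of these proteins, all tested, 7 were higher and 5 lower in WT, while KO had 6 higher and 7 lower. These counts too are near the shares over all genes, 37.0% and 38.5% in WT and 36.3% and 39.6% in KO. Tle1, among the 7 in WT, lay at the threshold (adjusted p = 0.05, edgeR), and without it the count is 6. Pbx3, a homeodomain partner, rose by 1.53 ± 0.14 (SE) in WT, and Ssbp4, which stabilises Ldb1 complexes, by 1.42 ± 0.15. The corepressor Ctbp1 was called at 0.92 ± 0.10 and its paralog Ctbp2 at -2.18 ± 0.15. The Groucho-type corepressor Tle2 fell by 2.34, and Zfp521, a zinc-finger partner of Ebf proteins, by 1.78, while Zfp423 was called at 0.54. With library totals 2 cofactors (Pbx3 and Ssbp4) were higher and 13 lower in WT, Ctbp1 was at 0.10 (adjusted p = 0.378, edgeR) and Zfp423 at -0.29. With transcript length offsets 11 were higher and 4 lower.

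Granule lineage and glial factors were lower on Purkinje ribosomes, where 38.5% of all genes were lower in WT and 39.6% in KO. All 12 tested granule lineage factors fell in both genotypes, with a median of -2.13 in WT, among them Zic1 (-2.13 ± 0.16, SE), Neurod1 (-2.41 ± 0.25) and Etv1 (-3.03 ± 0.19). All 7 glial factors fell, with a median of -1.65 in WT, Sox10 the most at -2.33 ± 0.29. Of 8 tested factors of other cerebellar neurons 5 fell, Tfap2b and Pax2 of interneurons among them at -2.54 and -2.06, and none rose. Tfap2a at -0.24, Lmx1a at -0.36 and Pou4f1 at 0.03 did not pass in WT. Of 9 tested progenitor and early lineage genes 6 fell in WT and 2 were called higher. Dab1, the reelin adaptor, was among the latter at 1.05 ± 0.15 (SE). With library totals none was called higher. The count called higher in WT was 1 without TRAP replicate 1 or 3, or without input replicate 1 or 2. Ptf1a itself was at 0.0597 CPM in WT input and 0.0879 in WT TRAP, near the floor of 3 counts, and was not tested.

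The factors varied unequally among TRAP libraries, and they did not vary as one block. In WT replicate 3, Lhx1 and Skor2 lay 1.35 and 1.12 above the mean of the other WT libraries on the log2(CPM + 1) scale. In the same library Lhx5 lay 0.86 lower than that mean (deviation -0.86), Foxp2 deviated by -0.83 and Ebf1 by -0.69, whereas Hes3 deviated by -0.04. In KO replicate 4, Rora, Lhx1, Skor2 and Ebf3 were high, by 0.58, 0.65, 0.60 and 0.63, and Lhx5 and Hes3 were near the other KO libraries, at -0.01 and 0.06. Over all genes, the deviations of WT replicate 3 correlated with log2 transcript length at r = 0.221 and those of KO replicate 4 with GC content at r = -0.239. These r are across 15685 genes that share their libraries, and the part of length and GC content in the spread of the factors was not tested.

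The SD in WT TRAP put Lhx1 above 97.1% of all genes, Skor2 above 92.1% and Foxp2 above 88.2%, and Rora above 19.2%. In KO TRAP the order differed: Rora lay above 92.6% of genes and Ebf3 above 92.2%, and Lhx5 above 23.7%. Among the inputs Skor2 was the most variable of the 10, above 98.3% of genes in WT and 97.3% in KO.

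**Figure D4:**
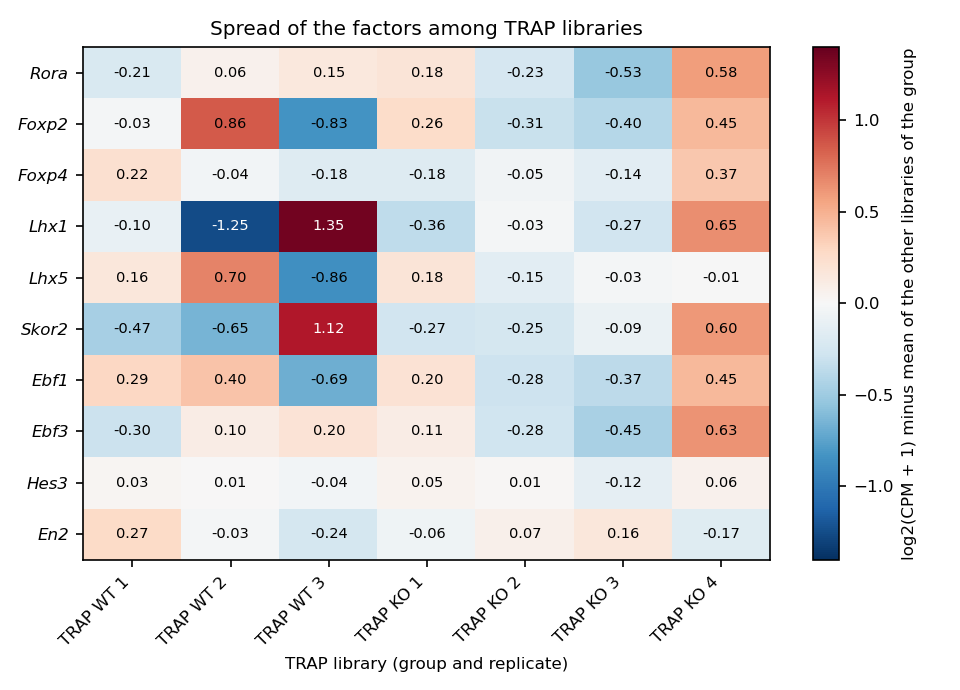
Deviation of each factor (rows) in each TRAP library (columns) from the mean of the other libraries of its group, in log2(CPM + 1) units, red for higher and blue for lower. WT replicate 3 has Lhx1 at 1.35 and Skor2 at 1.12 beside Lhx5 at -0.86, while the Hes3 row stays between -0.12 and 0.06.

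On Purkinje ribosomes, no factor passed the test for a difference between KO and WT. The count was 0 of 10 by edgeR's quasi-likelihood test, where 0.00707% of 14145 genes passed, and 0 by DESeq2, which called 0.0212% of all genes. None of the 10 had an unadjusted p under 0.05, against 1.50% of all genes. Log2 fold changes of KO against WT ran from -0.15 for Hes3 to 0.23 for Foxp4, with a median of 0.15 beside 0.0018 over all genes. They were positive for 9 factors, where 50.3% of all genes were positive, but all of these 9 except Foxp4 changed sign when 1 library was left out.

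The intervals limit the size of a genotype difference unequally. For Foxp4 the 95% interval was -0.16 to 0.63, for Hes3 -0.47 to 0.17 and for En2 -0.26 to 0.42. For Rora it was -0.42 to 0.59, for Ebf3 -0.33 to 0.65, for Lhx5 -0.41 to 0.70 and for Ebf1 -0.36 to 0.74. Skor2 (-0.47 to 0.81), Foxp2 (-0.51 to 0.85) and Lhx1 (-0.77 to 0.94) had the widest, so that a change of close to 2-fold in Lhx1 lies inside the interval. Without WT replicate 3, Lhx1 was at 0.61 and Skor2 at 0.54, while Lhx5 was at -0.08 and Foxp2 at -0.07. Without WT replicate 2, Lhx1 was at -0.24 and Foxp2 at 0.51. Without KO replicate 4, Rora moved from 0.09 to -0.14.

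Hes3 was the 1 factor whose TRAP libraries did not overlap between genotypes, a property of 4.49% of all genes. Its 3 WT libraries lay between 788 and 814 CPM and its 4 KO libraries between 678 and 747 CPM, a log2 fold change of -0.15 ± 0.14 (SE), with adjusted p = 1.0 by edgeR. The value stayed between -0.19 and -0.11 when each library was left out. The summed level of the 12 Purkinje markers was 87400 to 98500 CPM in WT TRAP and 78800 to 90400 in KO TRAP, and their median log2 fold change was -0.07 with none of 12 called. The part of Purkinje RNA content in the Hes3 difference was not tested.

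In whole cerebellum, again no factor passed the test for genotype. With sex as a covariate Rora and Ebf3 had the largest values, both 1.26-fold higher in KO. For Ebf3 the group means differed less, at 11.8 CPM in KO and 10.5 in WT, and the libraries overlapped. The Ebf3 value fell as low as 0.15 on the log2 scale among 18 alternatives. The count called by edgeR was 0 of 10, against 0.0188% of 15997 genes. Unadjusted p was under 0.05 for 3 of 10, all higher in KO, against 13.7% of all genes and 6.24% as higher. These were Rora at 0.33 ± 0.09 on the log2 scale (SE, adjusted p = 0.216), Ebf3 at 0.33 ± 0.10 (adjusted p = 0.254) and Foxp2 at 0.28 ± 0.11 (adjusted p = 0.312), all by edgeR. DESeq2's Wald test called 1 factor, Rora, at adjusted p = 0.0252, where it called 2.07% of the 14136 genes to which it gave an adjusted p. The other 7 ranged from -0.0018 for En2 to 0.31 for Skor2, and 9 of 10 were positive against 47.8% of all genes. The Skor2 means were 15.0 CPM in KO and 14.2 in WT, and its lowest value among the alternatives was 0.059.

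The input libraries of KO and WT did not overlap for Rora and Lhx1, both higher in KO, against 10.4% of all genes and 6.11% as higher. Rora was at 319 to 407 CPM in KO and 269 to 304 in WT, and Lhx1 at 50.2 to 53.0 CPM in KO and 44.2 to 49.6 in WT. KO replicate 3 was the highest KO input for all 10 factors. It is the only male KO input, and WT replicate 1 is the only female WT input. Sex is a covariate, so a fit without either compares the genotypes within 1 sex. Without KO replicate 3, the 2 female KO inputs are set against WT replicate 1 alone. Rora was then at 0.18, Foxp2 at 0.18, Ebf1 at 0.01 and Foxp4 at -0.01, and 7 of 10 values were positive. Without WT replicate 1, KO replicate 3 alone is set against the 3 male WT inputs, and the Rora value was 0.48. The summed level of the 12 Purkinje markers was 7320, 7620 and 8380 CPM in the 3 KO inputs, again highest in replicate 3, and 7140, 7000, 7280 and 7590 in the 4 WT inputs. Their median log2 fold change in input was 0.11 with none of 12 called, and the part of Purkinje RNA content in the values of the factors was not tested.

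**Figure D5:**
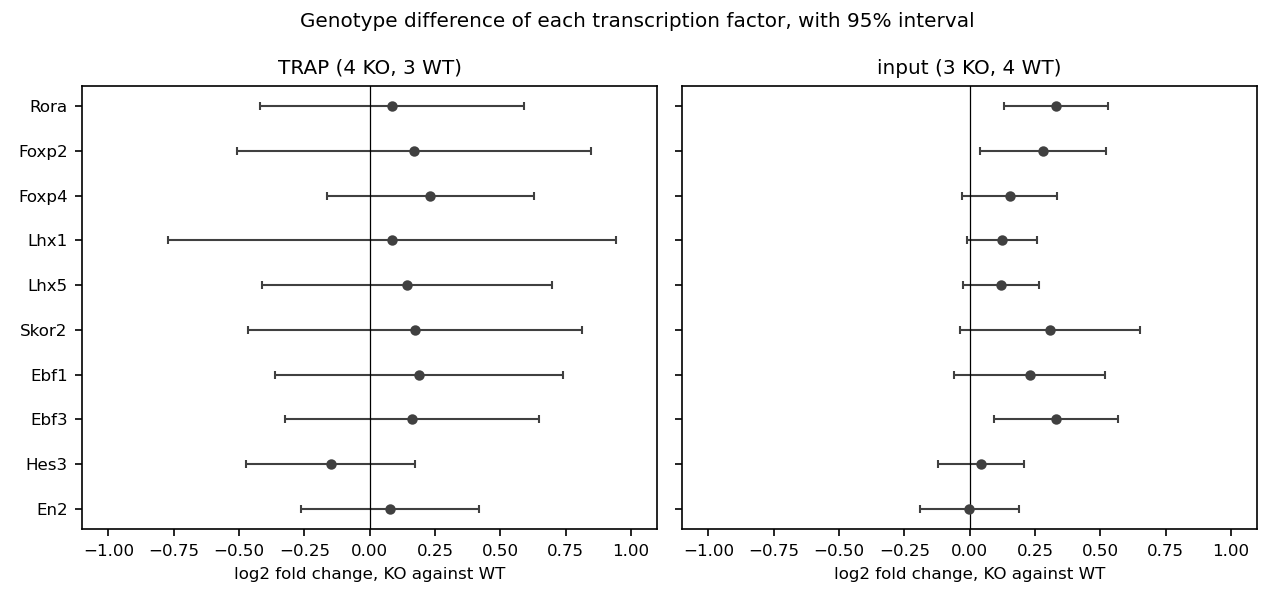
Log2 fold change of KO against WT for each factor in TRAP (left) and input (right), with 95% intervals. All 10 TRAP intervals include 0, and in input those of Rora, Foxp2 and Ebf3 lie above 0 without correction for the number of genes.

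The genotype difference of a factor was not shown to depend on the fraction. In the interaction test none of 10 was called by edgeR (adjusted p = 0.999 for each) or by DESeq2 (0.00623% of all genes), and none had an unadjusted p under 0.05. Among all 16042 genes 0% were called by edgeR and 2.68% had an unadjusted p under 0.05. Interaction values, TRAP minus input, ran from -0.28 ± 0.23 (SE) for Rora to 0.10 ± 0.17 for En2, and that of Lhx1 had a 95% interval of -1.06 to 0.72. The genotype and fraction contrasts share libraries and are therefore not independent of each other. No gene of the relatives, cofactors, Rora-dependent, progenitor, granule, other neuron or glial lists passed for genotype in either fraction or for the interaction.

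The genes most like each factor over the 14 libraries were ranked by Pearson r of log2(CPM + 1) among 16042 genes. All libraries share the split into TRAP and input, which carries most of r. Rora was closest to Nwd2 and Sestd1 (both r = 0.98), Foxp2 to Rbm18 and Sms (both 0.99), and Ebf1 to Rbm18 and Dtwd2 (both 0.99). Foxp4 was closest to Nup93 and Nans, Lhx5 to Nkiras1 and Slc25a4, Skor2 to Tfg and Cops5, and Ebf3 to Arap1. Their r ran from 0.9964 to 0.9988. Lhx1 was closest to Fbh1 and F730043M19Rik (both 0.99). Hes3 was closest to Akain1 and Mpc2 (0.9996 and 0.9994) and En2 to Jazf1 and Lin7a (0.9975 and 0.9972). Among the factors the highest r was 0.9944, for Foxp4 with Hes3, and the lowest between rising factors was 0.81, for Foxp2 with Lhx1.

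For 6 of the factors a gene is annotated on the opposite strand within their span (GENCODE M21, GRCm38). The overlaps were found with GENCODE spans, and the coordinates printed next are the RefSeq spans of the genes. Exons overlap for Rora (chr9:68653404-69388246) with Gm15511, for Lhx5 (chr5:120431886-120441457) with Gm27199 and for Ebf3 (chr7:137193671-137322805) with Gm45278. Whether counting used strand is not given in the sources used here, and without it reads of these pairs cannot be told apart. The only opposite-strand gene that has a row of its own is Gm10578, inside an Ebf3 intron, with at most 1 read in any library.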

How the data were processed

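The 14 libraries were sequenced from mouse cerebellum at P21. The deposited table holds whole-number read counts per gene with Entrez row names and no normalization by the authors, judging from its different library totals. Salmon 0.8.2 and mm10 are listed, with no role, per the submitters' processing notes, and the counting tool, annotation and strand setting are not given in the sources used here. Symbols and the printed gene spans came from RefSeq (GRCm38.p6), whose symbols matched 24045 of 24100 genes. Transcript lengths and opposite-strand overlaps came from GENCODE M21 (GRCm38).

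Tests used edgeR's quasi-likelihood method (edgeR 4.0.16, R 4.3.3), two-sided, with TMM factors, filterByExpr, sex as a covariate and Benjamini-Hochberg adjustment over all genes tested. Genotype was fitted within the 7 TRAP and within the 7 input libraries, and the fraction contrasts and the interaction over all 14. Intervals cover 95%. CPM levels used TMM factors over 14 libraries. Each library was counted as 1 replicate. Library pairs within a group differed by a chi-square of 8.63 to 267 per degree of freedom, which is more than counting error. That cannot show that the libraries came from separate animals. A count of 3, between 0.0438 and 0.205 CPM, was taken as the floor, which covers counting error only.

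The alternatives were other scalings, filters on low counts, DESeq2 1.42.0, limma 3.58.1 with quality weights, no sex covariate, each library left out, a replicate block, and the libraries of 1 genotype alone or all 14 in 1 fit. Offsets for transcript length and for GC content, by loess in each library with span 0.3, were chosen after seeing the data. The 10 factors and the gene lists were chosen with earlier results of these data known. The genes named are the 10 factors, Astn2, list genes that passed or that are described with their group, opposite-strand genes within a factor's span, and the 2 genes most like each factor. Protein sequences were not analysed here. A few genes that these rules cover are not reported here. Scripts were tested on simulated data.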

Additional observations from a re-analysis of the deposited data

How the results depend on the processing

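For TRAP against input, 249 of 250 values of the factors kept their direction and their call in each genotype over 25 alternatives, and the exceptions were those of Rora with library totals. The direction changed for 19 of 180 genotype values in TRAP, 12 of 180 in input and 19 of 240 of the interaction, and the cause was not tested. Foxp4 and Hes3 in TRAP, Rora, Hes3 and En2 in the interaction, and all factors but Foxp4, En2 and Hes3 in input kept their direction in every alternative run. With quality weights the genotype values in TRAP were -0.0093 for Rora, -0.0072 for Lhx5 and En2, -0.034 for Foxp2 and -0.13 for Ebf1. Transcript length offsets gave Rora -0.037. En2 in input turned to 0.01 with DESeq2 size factors, with no filter on low counts and with DESeq2's Wald test (0.0057, 0.0058 and 0.0058), and to 0.0026 with quality weights, 0.069 with GC content offsets and 0.025 with length offsets. DESeq2's Wald test called 1 factor for genotype in input. In the interaction, quality weights gave Foxp4 -0.074, Lhx1 0.16, Lhx5 -0.12 and Skor2 0.0052, GC content offsets gave Foxp4 -0.005 and Lhx5 -0.011, and library totals gave Ebf1 0.028.

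Leaving out each library gave genotype values in TRAP of -0.14 to 0.28 for Rora, -0.067 to 0.51 for Foxp2, -0.24 to 0.61 for Lhx1, -0.082 to 0.43 for Lhx5, -0.062 to 0.54 for Skor2, -0.015 to 0.35 for Ebf1, -0.064 to 0.35 for Ebf3 and -0.012 to 0.20 for En2. In input they were -0.014 to 0.31 for Foxp4, -0.15 to 0.14 for En2 and -0.10 to 0.19 for Hes3. The ends of these input ranges came from the fits without KO replicate 3 and without WT replicate 1, which rest on 1 library of a genotype. For the interaction the values were -0.40 to 0.28 for Foxp2, -0.50 to 0.47 for Lhx1, -0.20 to 0.38 for Lhx5, -0.37 to 0.29 for Skor2, -0.27 to 0.14 for Ebf1 and -0.23 to 0.0065 for Ebf3. The counts of factors called stayed at 10, 10, 0, 0 and 0 in these fits.

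Libraries of the same number did not deviate together in every pair (r of -0.125 to 0.292 between fractions, -0.196 to 0.143 between genotypes), so the numbers were not taken as pairs. Between fractions r was 0.292, 0.243 and 0.0981 in WT and 0.225, 0.225 and -0.125 in KO. Input was set aside before purification, so TRAP and input libraries may share animals. The main fraction and interaction tests treat them as independent, which is a limit of those tests. A replicate block, over 12 libraries for the fraction contrasts and the interaction, left the counts of factors called at 10, 10, 0, 0 and 0. It gave genotype values in TRAP of -0.12 for Rora and -0.073 for Ebf3. Of 1540 counts of list genes called, 1514 stayed within 1.5 times. Of 80 mean CPM levels recomputed with other scalings, 32 moved by more than their SD, all of them with library totals. The factors had at least 282 reads in each library, and whether depth limited the genotype tests was not tested.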
